A study of Rattus norvegicus with 6 samples.

Results

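The lining of the third ventricle, the ependyma, was compared with total brain in the adult rat, with 1 microarray for each. These were 2 of the 6 arrays of a study of the circumventricular organs, small structures at the borders of the brain's ventricles. The arrays were chosen by their tissue labels, and all genes that a probe named singly and that had a value on both arrays were taken, which gave 12181 genes. Of these, 9126 counted as measured.

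Both samples came from untreated adult male Sprague-Dawley rats described as normal. The ependyma sample was a pool of 2, without a statement of what was pooled. Its cells were cut from the wall of the ventricle by laser capture microdissection, away from the subcommissural and subfornical organs. The labels name no marker used to choose the cells. Total brain was a pool of whole normal brains that served as the study's reference. The other arrays held the subcommissural organ, the subfornical organ and, on 2 arrays, the pineal gland. For every tissue 3 ng of total RNA was amplified through 2 rounds of in vitro transcription and labelled with biotin. With 1 array on each side the difference between ependyma and total brain has no replicate check, so sizes and counts are given without a test.

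Ependymal cells form a single sheet between the brain and the cerebrospinal fluid, and most of them carry a tuft of motile cilia that moves this fluid. The shaft of a motile cilium, the axoneme, is a ring of paired microtubules around a central pair. Dynein motors make the pairs slide, and radial spokes and nexin links turn the sliding into a beat. Along the lower part of the ventricle lie tanycytes, elongated relatives of ependymal cells, and behind the wall lie the neurosecretory nuclei of the hypothalamus.

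A level here is the authors' processed intensity, on a linear scale. The medians of the arrays lay between 1.04 and 1.07, and their 75th percentiles were 5.77 in ependyma, 7.93 in total brain and between 4.90 and 6.31 on the other 4 arrays. Before log2 was taken, any value under the pooled 5th percentile of 0.142 was set to 0.142. A gene counted as measured when the brighter of the 2 sides reached 1.05, the pooled median. Where the dimmer side lay under 1.05, the fold is given against 1.05 and written as at least so many fold. No detection call was used, so the limit of detection is unknown.

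Of the 9126 measured genes, 682 (7.47%) were at least 4-fold higher in ependyma than in total brain and 868 (9.51%) were at least 4-fold lower, together 17.0%. With the dimmer side held at 1.05, 1036 of these 1550 genes still differed at least 4-fold. The median log2 difference over all measured genes, ependyma minus total brain, was -0.41, with quartiles of -1.18 and 0.42, and 54.6% of genes lay within 2-fold. Ependyma was thus the lower side for the typical gene as deposited. That centre moved with the scaling, to -0.06 after quantile normalization and to 0.09 with the 75th percentiles set equal. The share of the 4-fold genes that were higher in ependyma was 44.0% as deposited, 56.3% after quantile normalization and 66.9% with equal 75th percentiles. List medians below are therefore to be read against -0.41, and list counts against 7.47% higher and 9.51% lower. For scale, the 2 pineal gland arrays differed at least 4-fold for 248 of 8563 genes (2.90%), with an SD of 0.77 for their log2 difference. That pair is of another tissue, and it gives no error for the ependyma.

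Dim genes were counted more often. The 4-fold share was 21.0% of 3154 genes whose brighter side lay between the pooled median and the pooled 75th percentile of 6.04. It was 15% of 4340 genes from there to a level of 50, and 14.5% of 1632 genes at or above 50. A second probe of the same gene is the only repeat within these arrays, and it shares their RNA. It was counted only when it reached 1.05 on either array. Dimmer second probes, such as those of Dnaaf1, Dnah1 and Spag6l, are therefore left out of the counts that follow. Among genes at least 4-fold higher, the second probe lay on the same side for 62 of 92, and for 37 it was also 4-fold apart. Among genes at least 4-fold lower, it lay on the same side for 146 of 168 and was 4-fold apart for 76. Of 1484 second probes of genes that did not reach 4-fold, 247 (16.6%) were 4-fold apart.

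**Figure D1:**
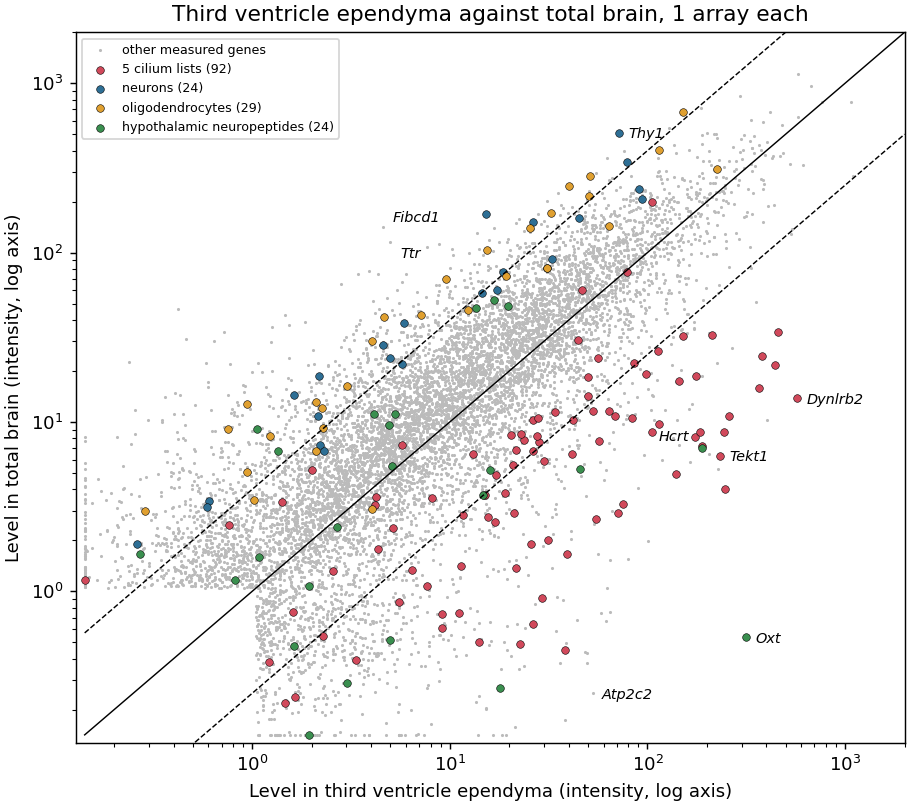
Level of each of the 9126 measured genes in the third ventricle ependyma (x axis) and total brain (y axis), as intensities on log axes with values under 0.142 drawn at 0.142; the solid line marks equal levels and the dashed lines 4-fold. Of the 92 genes of the 5 cilium lists 58 lie beyond the dashed line on the ependyma side, while 15 of 24 neuron genes and 20 of 29 oligodendrocyte genes lie beyond it on the total brain side.

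The 4 genes taken as markers of the ependyma array were chosen with their levels known, so the levels are a description. Dynlrb2, a dynein light chain of the roadblock type, had a level of 574 in ependyma, 489.9 in the subcommissural organ, 157 in the subfornical organ, 0.387 and 1.84 in the pineal gland, and 13.8 in total brain. Its level in ependyma was 41.7-fold that in total brain. Tekt1, a tektin filament protein of the axoneme, had a level of 233 in ependyma, 192 in the subcommissural organ, 47.1 in the subfornical organ, 0.453 and 0.848 in the pineal gland, and 6.33 in total brain, a difference of 36.9-fold. Both cilium genes were thus nearly as high in the subcommissural organ as in ependyma, and low in the pineal gland. Oxt, the gene of the hormone oxytocin, had a level of 317 in ependyma, 0.496 in the subcommissural organ, 0.0269 in the subfornical organ, 0.654 and 0.414 in the pineal gland, and 0.535 in total brain. It was at least 302-fold higher in ependyma than in total brain and stood above the pooled median on the ependyma array alone. Atp2c2, a calcium and manganese pump of the secretory pathway, had a level of 52.9 in ependyma, 5.53 in the subcommissural organ, 0.843 in the subfornical organ, 0.245 and 0.601 in the pineal gland, and 0.250 in total brain, so that it was at least 50.4-fold higher in ependyma than in total brain.

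The label of the tissue was set against marker genes. Of the motile cilium markers, Rsph1, a radial spoke protein, had a level of 176 in ependyma and 18.6 in total brain. Foxj1, the transcription factor that drives motile cilium genes, was not measured, since its probe read 0.389 in ependyma and 0.245 in total brain. All 5 general ependymal markers were measured, and they did not move alike. Drc12 had a level of 402 in ependyma and 10.3 in total brain, and Tmem212 had 8.23 in ependyma and 0.547 in total brain. Vim, the intermediate filament vimentin, had 334 in ependyma and 81.5 in total brain. S100b and Rarres2, which other glial or epithelial cells also express, were within 2-fold, at 9.72 and 41.9 in ependyma and 6.92 and 57.9 in total brain.

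Most genes of the cilium lists lay on the ependyma side. These lists were chosen with earlier results of these data known, and they hold the markers Dynlrb2 and Tekt1. Their counts are therefore not independent of the data. Over 5 lists of cilium genes, 58 of the 92 measured members were at least 4-fold higher in ependyma and 1 was at least 4-fold lower, and 85 lay above 0. The median of these 92 differences was 2.48 on the log2 scale, beside -0.41 for all measured genes. It was 2.72 after quantile normalization and 2.94 with equal 75th percentiles. In a dissected sample, more cells of a type and more RNA per cell cannot be told apart.

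Among the axonemal dyneins and the proteins that dock and regulate them, 10 of 13 measured genes were at least 4-fold higher and none was lower, and the median was 2.88. Drc1, a scaffold of the nexin link that holds neighbouring microtubule pairs together, had a level of 248 in ependyma and 4.03 in total brain, 61.7-fold higher. Dnah1, a heavy chain of an inner arm dynein, had 139 in ependyma and 4.92 in total brain, 28.2-fold higher, although a second probe of Dnah1 read under 1.05 on both arrays. Odad4, a protein of the docking complex that seats the outer dynein arms, had 39.2 in ependyma and 1.65 in total brain, 23.7-fold higher. The single member below 0 was Odad1, also of the docking complex and named after its values were seen, with 5.71 in ependyma and 7.28 in total brain.

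The tektins and the proteins inside the microtubule walls had the highest median of the 36 lists as deposited, 4.34, and 15 of 19 measured members were at least 4-fold higher. Pierce2, a protein of the microtubule lumen that outer dynein arms depend on, had a level of 38.1 in ependyma and 0.448 in total brain, at least 36.2-fold higher. It had 56.0 in the subcommissural organ, 13.5 in the subfornical organ, and 4.82 and 5.20 in the pineal gland, so that total brain was the low array. Cfap276 had 29.3 in ependyma and 0.912 in total brain, at least 27.9-fold higher, and Cfap126, needed to place cilia in multiciliated cells of the mouse, had 189 in ependyma and 7.25 in total brain, 26.0-fold higher. Members on the other side were few and dim. Tekt5, a testis tektin named after its values were seen, had 1.42 in ependyma and 3.39 in total brain.

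All 14 measured genes of the radial spokes, central pair and nexin links lay above 0, and 12 were at least 4-fold higher around a median of 2.99. Hydin, a giant protein of the central pair whose loss causes hydrocephalus in mice, had a level of 367 in ependyma, 221 in the subcommissural organ, 61.1 in the subfornical organ, 3.52 and 1.20 in the pineal gland, and 15.8 in total brain. It was 23.2-fold higher in ependyma than in total brain. Spef2, another central pair protein, had 22.7 in ependyma and 0.488 in total brain, at least 21.6-fold higher. Lrrc23, a radial spoke protein, had 378 in ependyma and 24.4 in total brain, and its second probe had 50.0 in ependyma and 12.7 in total brain. Spag6l, which sits on the central pair, had 115 in ependyma and 9.72 in total brain, while its second probe read under 1.05 on both arrays.

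The genes that assemble dyneins in the cytoplasm before they enter the cilium all lay above 0, and 9 of 15 were at least 4-fold higher around a median of 2.11. Dnaaf1 had a level of 245 in ependyma and 8.74 in total brain, 28.1-fold higher on the brighter of its probes, and its second probe read under 1.05 on both arrays. Ccdc103 had 26.4 in ependyma and 0.643 in total brain, at least 25.1-fold higher. Ttc12 had 70.8 in ependyma and 2.89 in total brain, 24.5-fold higher. Each of these is an assembly factor whose loss impairs ciliary beating in people.

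Intraflagellar transport carries cargo along cilia of every kind, including the single non-motile cilium of neurons and glia. Here the difference was smaller: 12 of 31 measured transport and Bardet-Biedl genes were at least 4-fold higher and 1 was lower, with a median of 1.60. Ift27 had a level of 25.7 in ependyma and 1.91 in total brain, and its second probe had 13.1 in ependyma and 0.331 in total brain. Ift81 had 7.62 in ependyma and 1.07 in total brain, and Ift172 had 17.0 in ependyma and 2.55 in total brain. The lower gene, Ift70b, had 0.0223 in ependyma and 1.17 in total brain, a difference that is at least 1.12-fold against the pooled median. Kifap3, the adaptor of the kinesin that drives transport, was named after its values were seen and was lower in ependyma, at 106 against 199 in total brain.

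The switches of cilium formation were less far apart than the cilium's own parts. Among ciliogenesis regulators, 5 of 19 measured genes were at least 4-fold higher and none was lower, with a median of 0.94. Rfx2, one of the regulatory factor X proteins that activate cilium genes, had a level of 44.7 in ependyma, 44.0 in the subcommissural organ, 22.0 in the subfornical organ, 1.41 and 0.360 in the pineal gland, and 6.98 in total brain, 6.40-fold higher in ependyma than in total brain. Rfx1, of the same family, had 24.1 in ependyma and 4.12 in total brain. Fzd6, a receptor of planar polarity, had 22.9 in ependyma and 4.29 in total brain. Ccno, a cyclin needed to multiply centrioles, had 3.72 in ependyma and 0.673 in total brain, at least 3.54-fold higher.

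**Figure D2:**
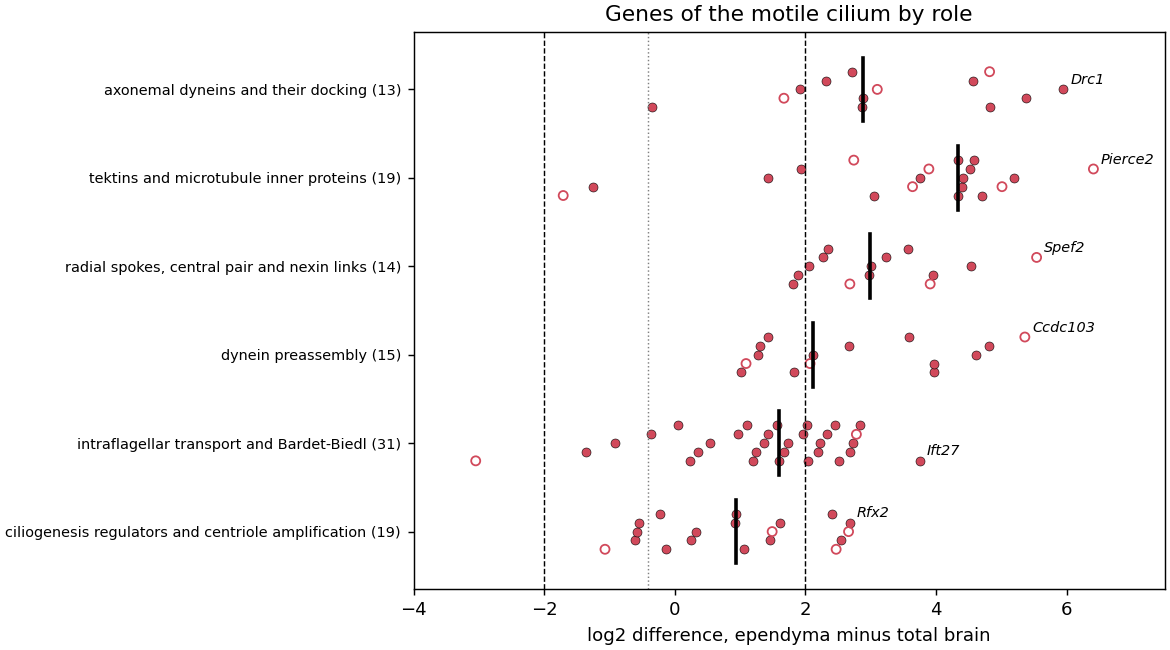
log2 difference in level, ependyma minus total brain, of each measured cilium gene, by role; bars are list medians, open circles have a dimmer side under 1.05, dashed lines mark 4-fold in each direction and the dotted line the median of all measured genes, -0.41. The medians are 2.88, 4.34, 2.99, 2.11 and 1.60 for the 5 cilium lists and 0.94 for the regulators.

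Regulatory factor X proteins bind a palindrome called the X-box, and promoters of cilium genes are known for carrying it. The letters GTNNCCNNGGNNAC were searched in the RefSeq promoters of the rat build GRCr8, from 250 bases before to 50 bases after each start. This palindrome of 14 letters, 8 of them fixed, is the same on both strands, and N stands for any base. Of all 27457 promoters 510 (1.86%) held it, and of 7588 promoters of measured genes 149 (1.96%) did. It was in 31 of 571 promoters (5.43%) of genes at least 4-fold higher in ependyma, in 6 of 667 (0.900%) of genes at least 4-fold lower and in 112 of 6350 (1.76%) of the genes between. For the 5 cilium lists it was in 9 of 79 promoters (11.4%). Among the genes of these lists that were at least 4-fold higher, it was in 5 of 50. Within the cilium lists the palindrome was thus not more frequent among the higher genes. The windows below show it, in capitals, so that the spacing from the start can be compared. They are those of the 5 genes of these lists that were at least 4-fold higher and held it. Ttll9 and Rfx2 were added from the other higher genes that held it.
Pierce2: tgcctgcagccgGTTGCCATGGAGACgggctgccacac
Rsph9: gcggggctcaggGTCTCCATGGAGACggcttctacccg
Dnaaf5: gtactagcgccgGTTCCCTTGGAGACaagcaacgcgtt
Zmynd10: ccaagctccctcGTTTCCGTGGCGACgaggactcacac
Spag6l: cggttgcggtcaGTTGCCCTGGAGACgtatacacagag
Ttll9: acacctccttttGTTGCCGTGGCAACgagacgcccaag
Rfx2: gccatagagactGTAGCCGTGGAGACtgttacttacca
The palindrome began 4 bases before the start in Pierce2 (chr8:82600479-82600516, minus strand) and in Rsph9 (chr9:22337665-22337702, plus strand). It began 30 bases before the start in Dnaaf5 (chr12:20606485-20606522, minus strand), 55 in Zmynd10 (chr8:117098962-117098999, plus strand) and 64 in Spag6l (chr11:97677764-97677801, plus strand). In Ttll9 (chr3:161889647-161889684, plus strand) it began 36 bases before the start, and in Rfx2 (chr9:1758112-1758149, minus strand) it lay in the transcript, at base 10. These are matches of letters, and no binding was measured. The levels behind them were 83.7 in ependyma and 10.6 in total brain for Rsph9, a radial spoke head protein. Zmynd10, a dynein assembly factor, had 105 in ependyma and 8.75 in total brain, and Dnaaf5, another, had 113 in ependyma and 26.1 in total brain. The windows of Dynlrb2, Tekt1, Oxt and Hcrt did not hold these letters, nor did any of 18 neuropeptide promoters. In a set of that size, a count of none is close to the 1.96% share of measured genes.

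A mixed list of tubulins, their modifying enzymes and their partners did not follow the axoneme as a group. Of its 20 measured members, 1 was at least 4-fold higher and 4 were at least 4-fold lower, with a median of -1.40. That median does not speak of tubulins alone. The higher gene was Ttll9, an enzyme that adds glutamates to tubulin, with 18.3 in ependyma and 0.141 in total brain, at least 17.4-fold higher, and with 5.33 in ependyma and 0.945 in total brain on its second probe. The lower ones belong to neurons and myelin. They were Tubb4a with 21.6 in ependyma and 149 in total brain, Mapt, the tau protein, with 8.57 in ependyma and 52.0 in total brain, Map1a with 3.60 in ependyma and 20.0 in total brain, and Stmn2 with 14.5 in ependyma and 58.1 in total brain. A second Map1a probe had 2.21 in ependyma and 3.86 in total brain. In all, 5 of the 20 lay above 0. Among these, named after their values were seen, Tubb4b had 1073 in ependyma and 771 in total brain. Tppp3, a partner, had 1093 in ependyma and 283 in total brain.

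A list of ependymal markers, meant to lie outside the axoneme, had a median of 2.38, and 18 of 30 measured were at least 4-fold higher. It still held cilium genes such as Drc12, and Dnai4, not measured, is also on the axonemal dynein list. The list was chosen with earlier results of these data known, so its median is not independent of them. Ccdc33 had a level of 61.8 in ependyma and 0.253 in total brain, at least 58.8-fold higher. Cimap1b had 101 in ependyma and 1.99 in total brain, 50.9-fold higher. Lrrc36 had 49.4 in ependyma and 0.376 in total brain, at least 47.0-fold higher, and Meig1, required for sperm formation in the mouse, had 44.2 in ependyma and 0.679 in total brain, at least 42.1-fold higher. Krt8, a keratin of simple epithelia, had 56.2 in ependyma, 11.9 in the subcommissural organ, 6.34 in the subfornical organ, 3.85 and 2.79 in the pineal gland, and 1.66 in total brain, 33.9-fold higher in ependyma than in total brain. Hdc, the enzyme that makes histamine and named after its values were seen, had 162 in ependyma and 11.9 in total brain. The single lower member was Kcnj13, a potassium channel that the choroid plexus uses, with 0.349 in ependyma and 9.98 in total brain, at least 9.50-fold lower.

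Of 681 genes at least 4-fold higher in ependyma than in total brain and valued on every array, the ependyma array was the highest of the 6 for 306. These genes were picked through a high ependyma level, so its high rank is partly set by that choice. The same share over all measured genes was not counted. For 53 it stood at least 4-fold above each of the other 5 arrays, and these 53 include Oxt, Atp2c2, Ccdc33, Npvf, Hcrt and Krt8. Ccl17, a chemokine that attracts T cells, had a level of 79.5 in ependyma, 0.155 in the subcommissural organ, 3.40 in the subfornical organ, 0.579 and 0.466 in the pineal gland, and 1.55 in total brain. Its 51.3-fold difference from total brain was matched by its second probe, with 54.0 in ependyma and 1.62 in total brain. Tnnt1, a troponin of slow skeletal muscle, had 227 in ependyma, 14 in the subcommissural organ, 15.7 in the subfornical organ, 0.954 and 1.05 in the pineal gland, and 5.24 in total brain, 43.3-fold higher in ependyma than in total brain. Slc44a4, a choline transporter of epithelia, had 64.3 in ependyma, 46.0 in the subcommissural organ, 2.55 in the subfornical organ, 1.04 and 0.890 in the pineal gland, and 0.759 in total brain, at least 61.2-fold higher in ependyma than in total brain. Both ependymal tissues were thus high for Slc44a4, whereas Ccl17 and Tnnt1 stood out on the ependyma array.

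**Figure D3:**
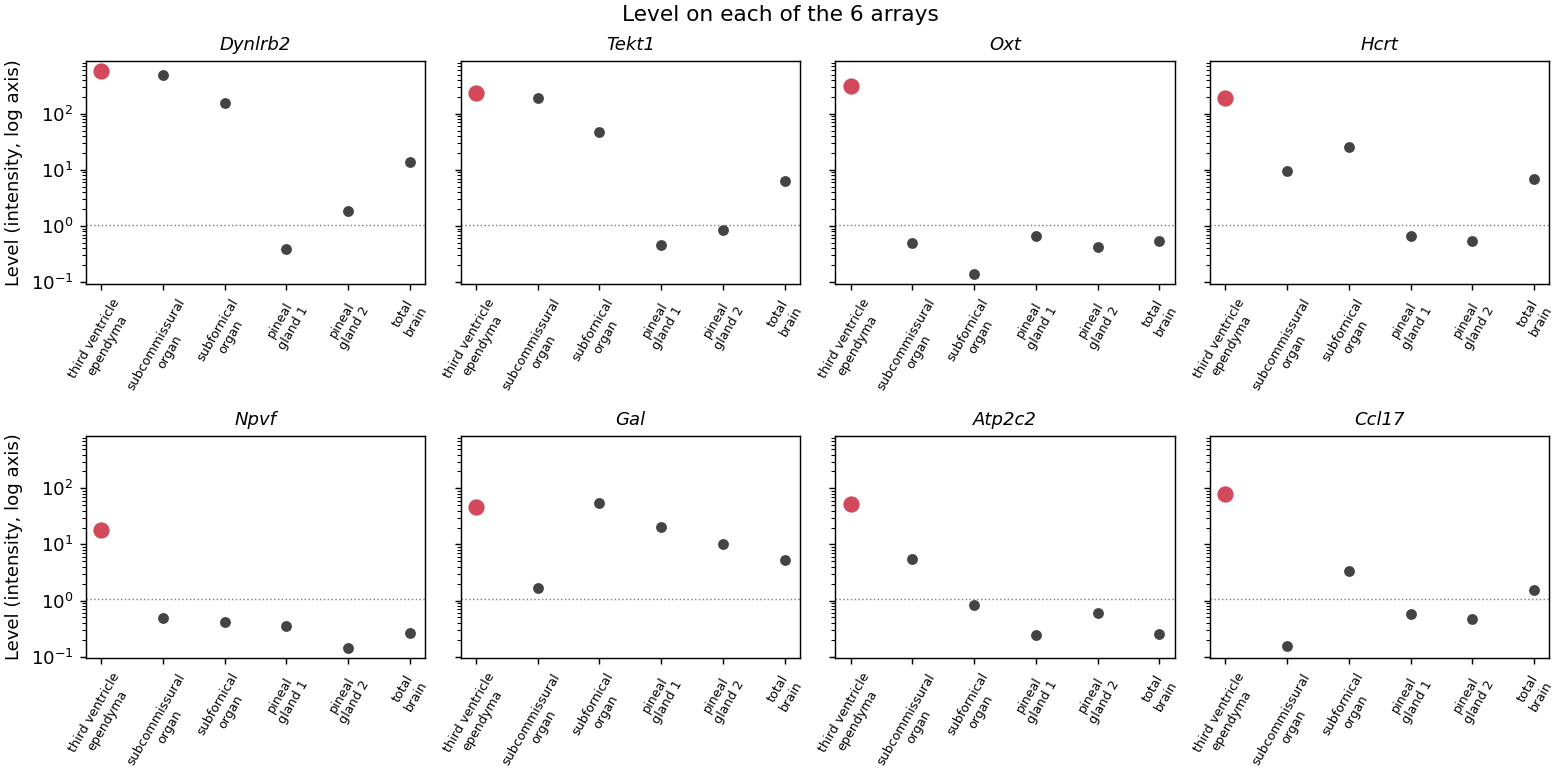
Level of 8 genes on each of the 6 arrays, as intensities on a log axis, with the ependyma array in red, values under 0.142 drawn at 0.142 and the pooled median of 1.05 dotted. Dynlrb2 and Tekt1 are high in both ependyma and the subcommissural organ, Oxt and Npvf exceed the pooled median in ependyma alone, and Gal is as high in the subfornical organ as in ependyma.

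The neuropeptides of the hypothalamus were split. Of 24 measured genes 7 were at least 4-fold higher in ependyma and 3 were at least 4-fold lower, with a median of 0.02. That median lay 0.43 above the median of all genes, a difference that became -0.55 when only genes reaching 6.04 were kept. The count of higher ones was 11 with equal 75th percentiles, and 4 both with that stricter filter and on log2(value + 1). Besides Oxt they included Hcrt, the precursor of the wake-promoting orexins, with a level of 188 in ependyma, 9.68 in the subcommissural organ, 25.1 in the subfornical organ, 0.652 and 0.543 in the pineal gland, and 6.98 in total brain, 26.9-fold higher in ependyma than in total brain. Npvf, the precursor of a peptide that restrains gonadotropin release, had 17.9 in ependyma, 0.491 in the subcommissural organ, 0.406 in the subfornical organ, 0.351 and 0.117 in the pineal gland, and 0.267 in total brain, at least 17.1-fold higher in ependyma than in total brain. Gal, the gene of galanin, had 45.8 in ependyma, 1.67 in the subcommissural organ, 54.2 in the subfornical organ, 20.3 and 10.1 in the pineal gland, and 5.26 in total brain. Its 8.72-fold difference from total brain was therefore shared with the subfornical organ. The remaining higher ones, named after their values were seen, were dim. Galp had 4.96 in ependyma and 0.519 in total brain, at least 4.72-fold higher, and Ghrh had 1.93 in ependyma and 0.0418 in total brain, at least 1.84-fold higher. Rln3 had 3.03 in ependyma and 0.286 in total brain, at least 2.89-fold higher. It had 1.66 in the subcommissural organ, 3.99 in the subfornical organ, and 6.84 and 3.84 in the pineal gland, so that total brain was the low array. The lower ones were Pdyn, the dynorphin precursor, with 1.06 in ependyma and 9.06 in total brain, Calcb with 1.35 in ependyma and 6.73 in total brain, and Nts, neurotensin, with 0.270 in ependyma and 1.67 in total brain.

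Genes of prohormone processing and the listed hypothalamic transcription factors were not on the ependyma side as groups. Of 23 measured genes of prohormone processing and dense core vesicles 2 were at least 4-fold higher and 3 were lower, with a median of -1.39. In a list of this size, these counts are close to the shares of all measured genes, 7.47% higher and 9.51% lower. Furin, a convertase of most cells, had a level of 30.5 in ependyma and 6.08 in total brain, and Sytl5, a vesicle docking protein, had 4.27 in ependyma and 0.434 in total brain. Pcsk5, another convertase, had 3.35 in ependyma and 36.8 in total brain, Cpz, a carboxypeptidase, 1.93 in ependyma and 17.1 in total brain, and Rab3a, a synaptic vesicle protein, 10.3 in ependyma and 46.0 in total brain. Of 19 measured genes on a list of hypothalamic transcription factors 2 were higher and 7 were lower, with a median of -1.17. Several of these factors also belong to other brain regions, so the counts do not speak of hypothalamic neurons alone. Bcl11a, also a cortical factor, had 7.68 in ependyma and 108 in total brain, and Tcf7l2, also a thalamic one, had 23.8 in ependyma and 135 in total brain. Vax1 had 3.20 in ependyma and 0.580 in total brain, at least 3.04-fold higher. The other higher one was En2, also counted for the cerebellum below, whose second probe lay the other way. Sim1, which specifies oxytocin neurons, was not measured, at 0.388 in ependyma and 0.298 in total brain, and Nkx2-1, a factor of the ventral hypothalamus, had 1.79 in ependyma and 2.52 in total brain. Avp, Trh and Otp were not analysed here. The part that hypothalamic neurons had in the levels of Oxt, Hcrt and Npvf was not tested.

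Tanycyte genes were not on the ependyma side as a group. Of 12 measured 2 were at least 4-fold higher and 3 were lower, with a median of -0.88. Ppp1r1b, a phosphatase inhibitor that striatal neurons also hold, had a level of 92.2 in ependyma and 20.6 in total brain. The other high member was Vim, which is shared with ependymal cells. Of the defining genes, Rax was not measured, at 0.167 in ependyma and 0.342 in total brain, and Crym had 5.54 in ependyma and 17.1 in total brain. Col23a1 had 1.36 in ependyma and 3.05 in total brain. Frzb, a secreted inhibitor of Wnt, had 0.651 in ependyma and 8.89 in total brain, at least 8.46-fold lower, and Vcan, a matrix proteoglycan, 2.04 in ependyma and 11.4 in total brain.

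Neuronal genes lay below total brain without exception. All 24 measured members were lower in ependyma, by at least 2-fold each on the floored scale, and 15 were at least 4-fold lower, with a median of -2.19. That count was 9 with equal 75th percentiles and 9 on log2(value + 1). Their summed level was 568 in ependyma and 2322 in total brain. Cplx1, which readies synaptic vesicles for release, had a level of 15.3 in ependyma and 169 in total brain, 11-fold lower, and its second probe had 7.85 in ependyma and 78.9 in total brain. Nefm, a neurofilament, had 1.63 in ependyma and 14.5 in total brain, and Gabrb2, a GABA receptor subunit, had 2.18 in ependyma and 18.8 in total brain. Thy1, a surface protein of neurons, had 72.0 in ependyma and 509 in total brain on its bright probe, and 0.718 in ependyma and 0.224 in total brain on its second. Neuronal genes were lower but not absent, as Grin1, an NMDA receptor subunit, shows with 26.4 in ependyma and 151 in total brain.

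Receptors of synaptic transmission lay the same way, with 12 of 31 measured at least 4-fold lower, none higher and a median of -1.63. Gria4, a glutamate receptor subunit, had a level of 0.405 in ependyma and 14.9 in total brain on its brightest probe, at least 14.2-fold lower. Another Gria4 probe had 3.47 in ependyma and 8.12 in total brain, a log2 difference of -1.23. Drd2, a dopamine receptor, had 1.92 in ependyma and 21.8 in total brain, and Gria3 had 4.10 in ependyma and 34.5 in total brain. Markers of brain regions outside the hypothalamus were counted region by region. For cortex and hippocampus 6 of 18 were at least 4-fold lower and none was higher, with a median of -1.71, led by Fibcd1, a gene of hippocampal neurons in the mouse, with 4.60 in ependyma and 141 in total brain, 30.6-fold lower. For the striatum 6 of 18 were lower and 1, Ppp1r1b, was higher, with a median of -1.72. Scn4b, a sodium channel subunit, had 1.26 in ependyma and 36.5 in total brain, and its second probe had 1.04 in ependyma and 32.9 in total brain.

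For hindbrain, midbrain and thalamus 5 of 20 measured were at least 4-fold lower and 2 were higher, with a median of -1.35. The higher ones were the dopamine and monoamine transporters Slc6a3, with 3.73 in ependyma and 0.816 in total brain, and Slc18a2, with 2.86 in ependyma and 0.481 in total brain, both against a side under the pooled median. Gata3 had -0.169 in ependyma and 5.70 in total brain, at least 5.42-fold lower, and Gata2 had 0.757 in ependyma and 5.35 in total brain. For the cerebellum 1 of 12 measured was higher and none was lower, close to the 7.47% and 9.51% of all genes in so short a list. The median of -0.10 changed sign to 0.32 after quantile normalization and 0.38 with equal 75th percentiles. The higher one was En2, with 3.23 in ependyma and 0.393 in total brain, at least 3.08-fold higher, but its second probe lay the other way, with 0.281 in ependyma and 1.23 in total brain.

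Oligodendrocyte genes had a median of -2.44, the lowest of the 36 lists as deposited. After quantile normalization it was -2.14, above the choroid plexus at -2.22. Of 29 measured 20 were at least 4-fold lower, a count of 12 with equal 75th percentiles, and none was higher. Their summed level was 882 in ependyma and 3183 in total brain. Opalin, a membrane protein of myelin, had a level of 0.938 in ependyma and 12.8 in total brain, at least 12.2-fold lower on its bright probe. Ermn, a late oligodendrocyte gene, had 4.65 in ependyma and 41.5 in total brain. Sox10, the lineage's transcription factor, had 0.758 in ependyma and 9.09 in total brain, at least 8.65-fold lower, and Fa2h, which makes the hydroxylated lipids of myelin, had 9.52 in ependyma and 70.2 in total brain. Mog, on the outer face of myelin, had 51.0 in ependyma, 43.7 in the subcommissural organ, 327 in the subfornical organ, 0.389 and 0.703 in the pineal gland, and 285 in total brain. Mog was thus lower in ependyma than in total brain, but far above its level in the pineal gland. On their bright probes Mbp had 7.15 in ependyma and 42.7 in total brain, Mag 15.5 in ependyma and 104 in total brain, and Mobp 25.5 in ependyma and 139 in total brain. Oligodendrocyte precursor genes had a median of -1.16, with 1 of 8, Vcan, at least 4-fold lower and none higher.

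Astrocyte genes stood close to total brain. Of 23 measured 2 were at least 4-fold higher and none was lower, and 12 lay within 2-fold. Over all measured genes 7.47% were higher, 9.51% were lower and 54.6% lay within 2-fold. Their median of -0.15 changed sign to 0.04 after quantile normalization and to 0.31 with equal 75th percentiles. Gfap, the filament of astrocytes, had a level of 39.3 in ependyma, 9.59 in the subcommissural organ, 139.9 in the subfornical organ, 0.553 and 0.568 in the pineal gland, and 28.4 in total brain. Aqp4, a water channel, had 104 in ependyma and 86.7 in total brain. Slc1a3, a glutamate transporter, had 182 in ependyma and 201 in total brain, and Aldh1l1, an enzyme of folate metabolism, had 31.1 in ependyma and 39.0 in total brain. The 4-fold pair were Slc14a1, a urea transporter, with 18.5 in ependyma and 3.63 in total brain (its second probe had 0.755 in ependyma and 1.1 in total brain), and Sox9, with 1.13 in ependyma and 0.228 in total brain, at least 1.07-fold higher against the pooled median.

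Microglial genes were also close to total brain, with 2 of 19 measured at least 4-fold higher, 1 lower, 16 within 2-fold and a median of 0.16. Over all measured genes 7.47% were higher and 9.51% lower, and the median was -0.41. The microglial median was 0.44 after quantile normalization and 0.66 with equal 75th percentiles. Aif1 had a level of 53.9 in ependyma and 48.1 in total brain, and Tyrobp, a signalling adaptor, had 93.1 in ependyma and 48.2 in total brain. Cd14, a receptor for bacterial lipopolysaccharide, had 43.8 in ependyma and 7.26 in total brain, 6.03-fold higher. Cd68, a lysosomal protein of phagocytes, had 0.936 in ependyma and 5.39 in total brain, at least 5.13-fold lower. The astrocyte and microglial medians thus lay nearer both to 0 and to -0.41 than the neuronal and oligodendrocyte medians.

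Vessel genes lay below total brain. Of 25 measured endothelial and barrier genes 1 was at least 4-fold higher and 7 were lower, with a median of -1.39. Mfsd2a, a lipid transporter of the blood-brain barrier, had a level of 1.35 in ependyma and 10.8 in total brain, 8.05-fold lower. Abcg2, an efflux pump, had 0.799 in ependyma and 7.28 in total brain, at least 6.93-fold lower. Cldn5, the tight junction protein of brain vessels, had 71.7 in ependyma and 167 in total brain, and Pecam1 had 2.86 in ependyma and 6.61 in total brain. Mural, fibroblast and meningeal genes were further down, with 11 of 20 measured at least 4-fold lower, 1 higher and a median of -2.20. The lower count was 7 with equal 75th percentiles. Igfbp2 had 8.80 in ependyma and 112 in total brain, Aldh1a2, which makes retinoic acid in the meninges, had 1.58 in ependyma and 17.6 in total brain, and Dcn, a matrix proteoglycan, had 1.19 in ependyma and 8.52 in total brain. The higher one, Ogn, had 1.84 in ependyma and 0.0548 in total brain, at least 1.75-fold. Of 6 measured blood genes 1, Alas2, was at least 4-fold lower, with 13.4 in ependyma and 55.4 in total brain.

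The choroid plexus is an epithelium continuous with the ependyma, and its genes were lower more often than higher. Of 19 measured 11 were at least 4-fold lower and 2 were higher, with a median of -2.36. The lower count was 7 with the filter at 6.04 and on log2(value + 1). The median lay -1.95 from that of all genes as reported, -0.58 without a filter, -0.96 on log2(value + 1) and -1.06 with the dimmer side at 1.05. Ttr, the thyroid hormone carrier that the plexus secretes, had a level of 4.97 in ependyma, 1.61 in the subcommissural organ, 4.17 in the subfornical organ, 104 and 152 in the pineal gland, and 116 in total brain, 23.4-fold lower in ependyma than in total brain. Sostdc1 had 0.755 in ependyma and 14.4 in total brain, at least 13.7-fold lower, and Kcne2, a channel subunit, had 0.495 in ependyma and 4.24 in total brain. Kl and F5 were not measured. Against these, Calml4, a calmodulin-like protein, had 225 in ependyma, 319 in the subcommissural organ, 44.8 in the subfornical organ, 12.5 and 11.9 in the pineal gland, and 22.4 in total brain, and Folr1, a folate receptor, had 79.7 in ependyma and 13.1 in total brain.

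Of 11 measured genes on a list for the subcommissural organ, which is itself a specialised ependyma, 4 were at least 4-fold higher in the third ventricle ependyma and 2 were lower, with a median of 1.0. The list was picked from these arrays, so its direction is not independent. Enkd1 had a level of 62.6 in ependyma and 1.04 in total brain, at least 59.6-fold higher, and Efcab10 had 48.3 in ependyma and 0.440 in total brain, at least 46.0-fold higher. Msx1, a homeobox gene of the dorsal midline, had 204 in ependyma and 33.3 in total brain. Creb3l4, defining for that organ here with 76.5 on its array, was 0.282 in ependyma and 0.445 in total brain. Sspo and Spdef were not analysed here.

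**Figure D4:**
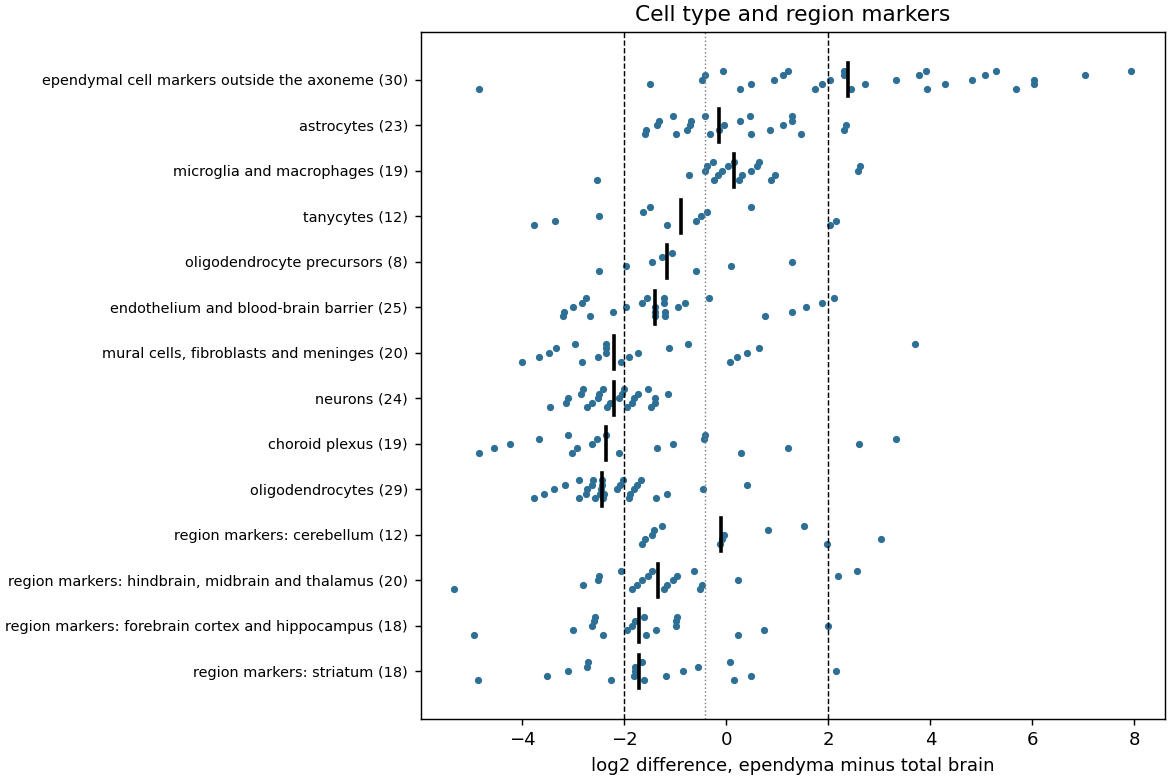
log2 difference in level, ependyma minus total brain, of each measured gene of 14 cell type and region lists; bars are list medians, dashed lines mark 4-fold in each direction and the dotted line the median of all measured genes, -0.41. Ependymal markers have a median of 2.38, neurons -2.19 and oligodendrocytes -2.44, while astrocytes, at -0.15, and the cerebellum, at -0.10, change sign under both other scalings.

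Channels and junctions of the ventricular wall were close to all genes, with 3 of 34 measured at least 4-fold higher and 2 lower. The median of -0.44 was -0.13 after quantile normalization and changed sign to 0.02 with equal 75th percentiles. Tjp3, a tight junction scaffold of epithelia, had a level of 48.9 in ependyma and 3.64 in total brain, 13.5-fold higher. Cldn11, the claudin of myelin, had 40.2 in ependyma and 248 in total brain, and Aqp11, a water channel, had 3.83 in ependyma and 17.0 in total brain. Among calcium pumps and calcium binding proteins 4 of 37 measured were at least 4-fold higher and 7 were lower, with a median of -0.83. Over all measured genes the shares were 7.47% higher and 9.51% lower. Besides Atp2c2 and Calml4, the higher ones were Calm3, a calmodulin gene, with 158 in ependyma and 33.7 in total brain, and Casq1, with 3.64 in ependyma and 0.875 in total brain. Calm3's other probes were nearer to each other, with 76.7 in ependyma and 63.2 in total brain on one of them. Vsnl1, a neuronal calcium sensor, had 2.14 in ependyma and 10.8 in total brain, and Atp2a2, the calcium pump of the endoplasmic reticulum, had 19.9 in ependyma and 96.6 in total brain. Slc8a1, the sodium-calcium exchanger, had 4.19 in ependyma and 23.5 in total brain, and Ncald, a neuronal calcium sensor, had 6.67 in ependyma and 33.3 in total brain. Both changed sign with the median over their probes, whose other members read under 1.05 on both arrays.

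Of 43 measured genes of Notch, Hedgehog, Wnt, BMP and FGF signalling 3 were at least 4-fold higher and 7 were lower, with a median of -0.64. The shares of all measured genes were 7.47% higher and 9.51% lower. Fgfr2, a fibroblast growth factor receptor, had a level of 5.53 in ependyma and 0.823 in total brain, at least 5.27-fold higher on its bright probe, while its second probe had 0.712 in ependyma and 1.27 in total brain. Spry4, an inhibitor of such receptors, had 1.41 in ependyma and 13.4 in total brain, 9.53-fold lower, and Bmp7 had 1.05 in ependyma and 7.53 in total brain. Neural stem and progenitor genes had a median of 0.68, with 2 of 19 measured higher and 1 lower. Cd24, a surface glycoprotein used to sort ependymal cells, had 33.3 in ependyma and 2.17 in total brain, and Sox2 had 5.74 in ependyma and 1.16 in total brain, 4.95-fold higher. Tnc, the matrix protein tenascin C, had 5.58 in ependyma and 43.5 in total brain, 7.80-fold lower. For a list of this size, these counts are close to the shares of all measured genes, 7.47% higher and 9.51% lower.

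Of 30 measured genes of complement, antigen presentation and the interferon response 4 were at least 4-fold higher and 1 was lower, with a median of 0.55. Psmb9, a subunit of the immunoproteasome, had a level of 53.7 in ependyma, 18.4 in the subcommissural organ, 82.3 in the subfornical organ, 23.3 and 15.6 in the pineal gland, and 2.49 in total brain, 21.5-fold higher in ependyma than in total brain. Usp18, which restrains interferon signalling, had 13.5 in ependyma and 0.221 in total brain, at least 12.8-fold higher, but its second probe lay the other way, with 1.95 in ependyma and 3.89 in total brain. Ifit3 had 5.61 in ependyma and 0.525 in total brain, and Ifitm1 had 9.78 in ependyma and 44.8 in total brain.

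Endoplasmic reticulum and housekeeping genes held few 4-fold differences, and those of the stress genes were all on the lower side. Of 20 measured immediate early and stress genes none was at least 4-fold higher and 4 were lower, beside 7.47% higher and 9.51% lower of all genes, with a median of -0.56. In a list of this size, a count of none higher is close to that share. Sgk1, a kinase that steroids induce, had a level of 15.4 in ependyma and 101 in total brain, and Nr4a1 had 3.97 in ependyma and 19.9 in total brain. Of 29 measured genes of the endoplasmic reticulum 1 was higher, none was lower and 22 lay within 2-fold, with a median of 0.04. Pdia2, a disulfide isomerase, was the exception, with 19.3 in ependyma and 0.0975 in total brain, at least 18.4-fold higher. Of 46 measured genes of antioxidant defence, glycolysis and lipid handling 2 were higher and 2 were lower, beside the same 7.47% and 9.51%, with a median of 0.23. Hk2, a hexokinase, had 19.4 in ependyma and 1.19 in total brain, 16.2-fold higher, and Apod, an apolipoprotein of glia, had 50.4 in ependyma and 231 in total brain. None of 13 housekeeping genes reached 4-fold either way, and their median was -0.61.

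For 111 of the 681 higher genes, total brain was the array that stood apart, at least 4-fold below each of the other 5. The 681 were picked as low in total brain against ependyma, so that array's low rank is partly set by the choice. Genes named above that are among the 111 include Pierce2, Rln3, Usp18, Psmb9, Pdia2, Enkd1 and Ogn. Atg101, a protein of autophagy, had a level of 58.4 in ependyma, 74.1 in the subcommissural organ, 58.4 in the subfornical organ, 63.3 and 54.1 in the pineal gland, and 0.744 in total brain, at least 55.6-fold higher in ependyma than in total brain. Tmem123, a membrane protein, had 49.2 in ependyma and 0.434 in total brain, with 15.8 in the subcommissural organ, 8.17 in the subfornical organ and 6.86 and 1.89 in the pineal gland. Itgb4, the integrin of hemidesmosomes, had 61.9 in ependyma, 4.48 in the subcommissural organ, 78.6 in the subfornical organ, 7.42 and 7.50 in the pineal gland, and 0.671 in total brain, and its second probe had 24.5 in ependyma and 0.545 in total brain. Total brain was the low array for these genes, whichever dissected tissue it was set against.

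On the other side, total brain was the highest of the 6 arrays for 622 of 867 lower genes with a value on every array and stood at least 4-fold above each other array for 158. Ependyma stood at least 4-fold below each other array for 38. The 867 were picked as higher in total brain than in ependyma, so both ranks are partly set by that choice. Irag1, a partner of a cGMP-dependent kinase in smooth muscle, had a level of 0.423 in ependyma, 1.88 in the subcommissural organ, 21.6 in the subfornical organ, 19.4 and 26.8 in the pineal gland, and 46.6 in total brain, at least 44.3-fold lower in ependyma than in total brain. Clec10a, a lectin of macrophages, had 0.724 in ependyma and 34.0 in total brain, at least 32.4-fold lower. Both are among the 38. Wnt9b, a secreted Wnt ligand, had 0.463 in ependyma and 30.7 in total brain, at least 29.2-fold lower. Pcolce, which aids the trimming of procollagen, had 1.47 in ependyma and 42.7 in total brain, 29.0-fold lower, and its second probe had 0.145 in ependyma and 11 in total brain. Mybpc1, a muscle protein, was at 0.643 in ependyma and at least 28.5-fold lower than in total brain. Hapln4, which links matrix around neurons, had 2.82 in ependyma and 65.1 in total brain, 23.1-fold lower. Eln, the elastin of arterial walls, had 0.586 in ependyma and 22.2 in total brain, at least 21.1-fold lower. Npy1r, a receptor for neuropeptide Y, had 0.239 in ependyma and 22.5 in total brain, at least 21.4-fold lower, but its other probes read under 1.05 on both arrays.

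The pattern of the 4 markers over all 6 arrays was set against that of 4879 other measured genes whose level in ependyma reached 6.04. These genes were thus picked through the array on which the markers are high, so the counts below depend on that choice. Pearson's r of the log2 levels was used, as a description over 6 arrays that share their processing. Nearest to Dynlrb2 were Tekt1 (r = 0.994), RT1-DMa (0.993) and Lrrc23 (0.991), and 54 genes had an r above 0.95. Nearest to Tekt1 were RT1-DMa (0.997), Rsph9 (0.997) and Lrrc23 (0.995), with 85 genes above 0.95. RT1-DMa, which loads peptides onto class II histocompatibility molecules, had a level of 28.9 in ependyma and 6.36 in total brain. Far fewer genes were close to the other markers. Nearest to Oxt were Abcb6 (0.989), Micall2 (0.976) and Gpc3 (0.972), with 4 genes above 0.95, and Abcb6 itself was 59.0 in ependyma and 28.4 in total brain. Nearest to Atp2c2 were Hsbp1 (0.982), Krt8 (0.961) and Marchf10 (0.960), with 6 genes above 0.95.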

How the data were processed

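Expression was measured on 1-colour microarrays, 1 per tissue except 2 for the pineal gland. The deposited table gave 1 intensity per probe and array, as processed by the authors. No header states the scale, which the values showed to be linear, and the scanner, background correction and scaling are not given in the sources used here. Dyes do not decide a direction, since each column is 1 sample read in Cy5, per the labels. Entries of -9999 were treated as missing values. Among 35129 probes, 16865 had 1 gene symbol in the platform annotation, 165 had several and 18099 were not listed. RefSeq's gene table held the identifiers of 16836 of the singly named probes and updated 1 symbol. A gene was its brightest probe by the mean over 6 arrays.

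Levels were floored at 0.142, the pooled 5th percentile, before log2 and subtraction (ependyma minus total brain). A gene was measured when its brighter side reached 1.05. No test was run, since 1 array per side leaves no spread, and the number of arrays limits the precision. A simulation tried the 4-fold call with the brightest probe over the compared arrays, so the probe rule over 6 arrays was not tested. Its changed genes were all bright in total brain, and its spread was set below that of the pineal pair. It therefore does not speak for dim genes. Named genes were the 15 most different in each direction, with the dimmer side held at 1.05; the 4 most different 4-fold members of each list in each direction; the defining markers; and the 3 genes nearest to each of 4 markers over 6 arrays. The nearest genes were sought among measured genes whose level in ependyma reached 6.04. The members and the 36 lists were chosen with earlier results of these data known. There were 9 alternative settings, of scaling, filter, floor, log scale, dimmer side and probe. Promoters came from RefSeq, build GRCr8. Python 3.11.15, pandas 2.3.3, numpy 2.4.6 and matplotlib 3.10.9 were used.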

Additional observations from a re-analysis of the deposited data

How the results depend on the processing

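Of 36 lists, 31 kept the sign of their median relative to all genes under all 9 settings. The exceptions were signalling without a filter (0.01), blood, housekeeping (0.17 with the stricter filter, 0.06 with the dimmer side raised), neuropeptides and cerebellum (-0.18 with the stricter filter, -0.35 over all probes). As deposited, 682 genes were higher and 868 lower. With equal 75th percentiles 1013 were higher and 501 lower, and the lower counts were 9 for neurons, 12 for oligodendrocytes and 7 for mural cells, while 11 neuropeptides were higher. After quantile normalization 793 were higher and 616 lower. Counting only genes whose brighter side reached the pooled 75th percentile gave 359 higher and 530 lower, with 7 choroid plexus genes lower and 4 neuropeptides higher. List medians minus that of all genes were then 3.60 for dynein preassembly, -0.55 for neuropeptides, -1.63 for hypothalamic transcription factors and 3.09 for the subcommissural organ list. Without a filter they were -0.58 for the choroid plexus, 0.33 for blood, 0.52 for the subcommissural organ list and -0.36 for synaptic receptors. On log2(value + 1), 337 were higher and 443 lower, 9 neuron and 7 choroid plexus genes lower, 4 neuropeptides higher, and the choroid plexus median was -0.96 from that of all genes. With the dimmer side at the pooled median, 431 were higher and 605 lower, and that choroid plexus value was -1.06. With the median over all probes of a gene, the calcium genes Ncald and Slc8a1, lower in ependyma on their bright probes, were at 0.68 and 0.23. The causes were not tested. A floor at the pooled 1st percentile was not run, since that value, -0.0359, has no logarithm. No paired analysis was possible because each side has 1 array. No array could be left out.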
